A study of Saccharomyces cerevisiae with 4 samples.

Results

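The data describe how translation efficiency (TE) varied among the genes of wild-type budding yeast at 4 h of sporulation. TE was the footprint (FP) RPKM of a gene divided by its mRNA RPKM, where RPKM is the reads of an ORF scaled to its length and to the sequencing depth. Members were the entries that name 1 ORF and had at least 10 RPKM of mRNA in wild type, which left 5357 of the 6549 entries listed. The mRNA values alone chose them, so their footprints were free to vary. TE has mRNA as its denominator, so the floor was not independent of TE. It left out some high ratios, such as *MAY24* at 5.81. Of the others, 199 entries joined several names and 993 single-ORF entries were under the mRNA floor.

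Both libraries came from wild-type *Saccharomyces cerevisiae* of the SK1 background, a strain that sporulates efficiently. By the study's methods its strains were *MATa/alpha* diploids unless stated to be haploid. The study lists several wild-type diploids and does not say which gave these libraries. All carried *ho::LYS2* with *lys2*, *ura3*, *his3::hisG* and *trp1::hisG*. They differed at *LEU2*, which was either intact or *leu2::hisG*, and in a tag on *DED1*, which only some carried. Cells were moved to sporulation medium, kept there for 4 h, held for 1 min in cycloheximide, which the labels put at 100 µM and the methods give in mass per volume, and collected. Footprints and mRNA were sequenced in 1 library each, so no value below has a replicate and no test was made. The 2 libraries of a *DBP1* deletion strain in the series are not used here.

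Ribosome profiling sequences the mRNA fragments that ribosomes shield from nuclease, and dividing them by mRNA gives a relative measure of how many ribosomes each message carries. It does not show whether those ribosomes move at the same speed on every gene. Sporulating yeast are starved of nitrogen and a fermentable carbon source, copy and recombine their chromosomes, divide the nucleus in succession and wrap the products in spore walls, and many meiotic proteins are timed by control of translation as well as of transcription.

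Reads were inferred from the steps between low RPKM values, since the values themselves are scaled. An inferred 4110000 reads lay behind the footprint library and 2220000 behind the mRNA library. The median member had 211 footprint and 163 mRNA reads. The 95% intervals printed beside TE are exact conditional (Clopper-Pearson) intervals from these reads. They cover counting error only, within these 2 libraries, and PCR copies of a molecule were not removed by molecular identifiers.

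The labelled stage was checked first against stage markers. All 11 early meiotic markers passed the mRNA floor, between 73.4 RPKM for *MER2*, which encodes a protein needed for meiotic DNA breaks, and 2037.6 RPKM for *DMC1*, the meiotic strand exchange protein. All 15 middle meiotic markers passed as well, between 301.0 RPKM for the cyclin gene *CLB4* and 2784.1 RPKM for the septin gene *SPR3*. The floor alone says little, since 5357 of the 6350 single-ORF entries passed it. The early markers had more mRNA than 64.4% (*MER2*) to 99.2% (*DMC1*) of these entries. The middle markers had more than 90.3% (*CLB4*) to 99.5% (*SPR3*). Messages of both classes were present in the same culture. Among the late markers *DIT1*, *DIT2* and *SPS100*, which act in spore wall maturation, lay between 37.6 and 47.7 RPKM, whereas the cell wall gene *CWP1* was at 3858.8 RPKM.

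The G1 cyclins of budding cells were nearly absent, with mRNA of 3.8 RPKM for *CLN1* and 5.2 RPKM for *CLN2*. Mating genes, which diploids of both mating types repress, had a median mRNA of 21.1 RPKM over 12 genes, but not all were low. *MFA1*, a pheromone gene, had 152.2 RPKM, and *STE18*, which encodes the gamma subunit of the mating G protein, had 287.2 RPKM of mRNA and 516.9 RPKM of footprints. In such bulk samples a smaller share of cells at a stage and less RNA per cell cannot be told apart.

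TE differed widely at the edges but was concentrated around its centre. The median TE was 0.728, and the middle 50% of the members lay between 0.456 and 1.10, a 2.41-fold range. From the 5th to the 95th percentile TE ran from 0.120 to 1.93, a 15.99-fold range, and 1% of the members exceeded 2.89. The lowest value above 0 was 0.00206 and the highest 12.8. Since each library was scaled to its own mapped reads, TE is relative, and a value of 1 has no meaning of its own.

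Over all members the low side held more genes than the high side. A TE at least 2-fold above the median was found for 666 members (12.4%), and a TE at least 2-fold below it for 947 (17.7%), while 69.9% lay within 2-fold. Among the 2950 members with at least 50 RPKM of mRNA, 452 were at least 2-fold above and 424 at least 2-fold below the same median. Against their own higher median of 0.811, the low side again held more, with 320 above and 506 below. Footprints were listed at 0 for 73 members (1.36%). The SD of log2 TE was 1.22 over the members above 0, against a counting SD of 0.15 on the same scale for the median member. Of the 5093 members with an interval, 3645 had one that left out the median TE. This held for all 638 members with an interval on the high side and for 841 of 845 on the low side, so nearly all of these differences from the median were larger than counting error. How far the remaining spread would repeat in another culture was not measured.

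**Figure D1:**
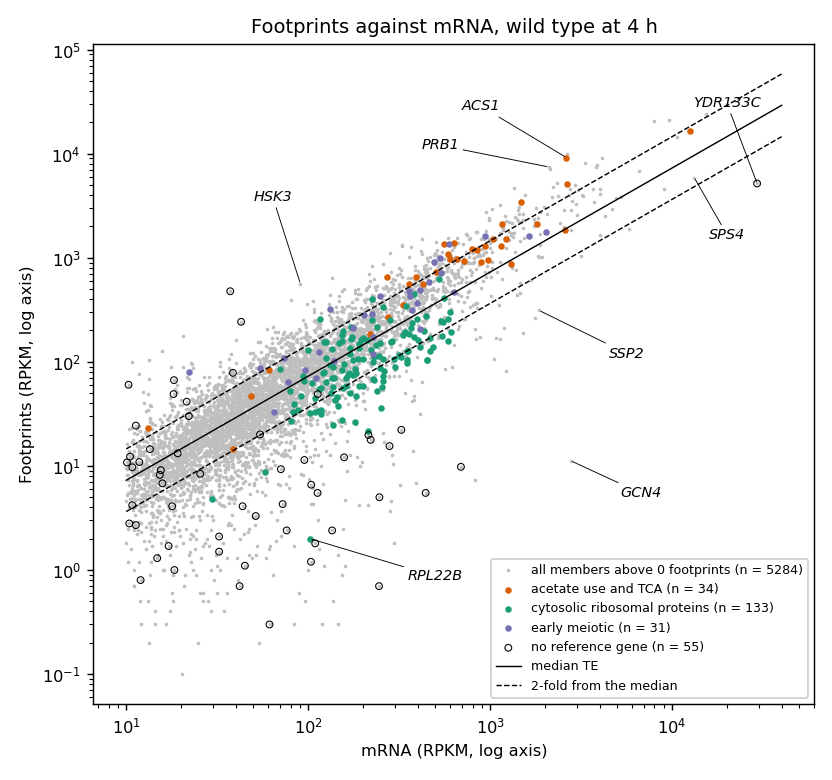
Each point is a member above 0 footprints, with its mRNA RPKM on the horizontal log axis and its footprint RPKM on the vertical log axis. The solid line marks the median TE of 0.728 and the dashed lines 2-fold above and below it. Acetate and TCA genes (orange) lie mostly above the solid line, cytosolic ribosomal protein genes (green) mostly below it, and entries without a reference gene (open circles) reach far below.

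Footprints followed mRNA across genes, with more spread of their own. On the log2 scale Pearson's r was 0.839 and Spearman's rho 0.832 over 5284 members, which are genes of the same 2 libraries and not replicates. The SD of log2 footprint RPKM was 2.22, larger than the 1.68 of log2 mRNA RPKM. The scatter of footprints against mRNA shows the low side as a tail that begins at the lowest mRNA levels and continues to *GCN4*, where 2773.7 RPKM of mRNA met 11.2 RPKM of footprints.

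Footprint reads were held by fewer genes than mRNA reads. The 10 members with the most reads took 10.9% of the members' footprint reads and the 100 highest 36.2%, against 6.65% and 27.1% for the highest of the mRNA library. The footprint total reached 50% with 223 members, the mRNA total with 393. Reads were taken here as RPKM times the gene span of the reference table, which counts introns and so overstates the share of genes that have them.

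The gene with the most footprint reads was *ACS1*, acetyl-CoA synthetase, which turns acetate into acetyl-CoA. It took 1.96% of the mapped footprint reads and 0.563% of the mapped mRNA reads, with 9167.7 RPKM of footprints, 2626.7 RPKM of mRNA and a TE of 3.49 (3.42 to 3.56). *PRB1*, the vacuolar proteinase B, followed with 1.42% of footprint reads, 0.400% of mRNA reads and a TE of 3.55 (3.47 to 3.63). For both genes footprints ran far ahead of mRNA. *ADY2*, an acetate transporter, took the third largest footprint share, 1.39%, but also 1.07% of mRNA reads, and its TE was 1.31.

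Sporulation genes and chaperones made up much of the rest of the list. *SPS2*, which encodes a spore wall protein, took 1.36% of footprint reads at a TE of 2.20, and its relative *SPS22* took 0.533% at 1.75. *RRT5*, a gene expressed in sporulation, took 0.863% of footprint reads but only 0.229% of mRNA reads, and its TE was 3.76 (3.65 to 3.87). The Hsp70 gene *SSA1* took 0.925%, the Hsp90 genes *HSC82* and *HSP82* 0.827% and 0.616%, and the Hsp70 gene *SSA3* 0.430%. *SSA1* and the Hsp90 pair also appear in entries shared with a close paralog, whose reads are not in these values.

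Among the 25 members with the most footprint reads, 24 had a TE above the median (50% of all members by definition), 18 were at least 2-fold above it (12.4% of all members) and none was 2-fold below (17.7%). They were chosen by their footprints, the numerator of TE, so these counts only describe them. They could rank high in footprints because of their mRNA as well as their TE, and 15 of them were also among the 25 highest in mRNA reads. The exception to the direction was *SPS4*, a sporulation gene, which had the largest share of mRNA reads of all members, 1.35%, but 0.597% of footprint reads, with a TE of 0.443 (0.436 to 0.451). *PDI1*, the protein disulfide isomerase of the endoplasmic reticulum, stood 18th in footprint reads and 75th in mRNA reads at a TE of 2.85 (2.76 to 2.95).

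**Figure D2:**
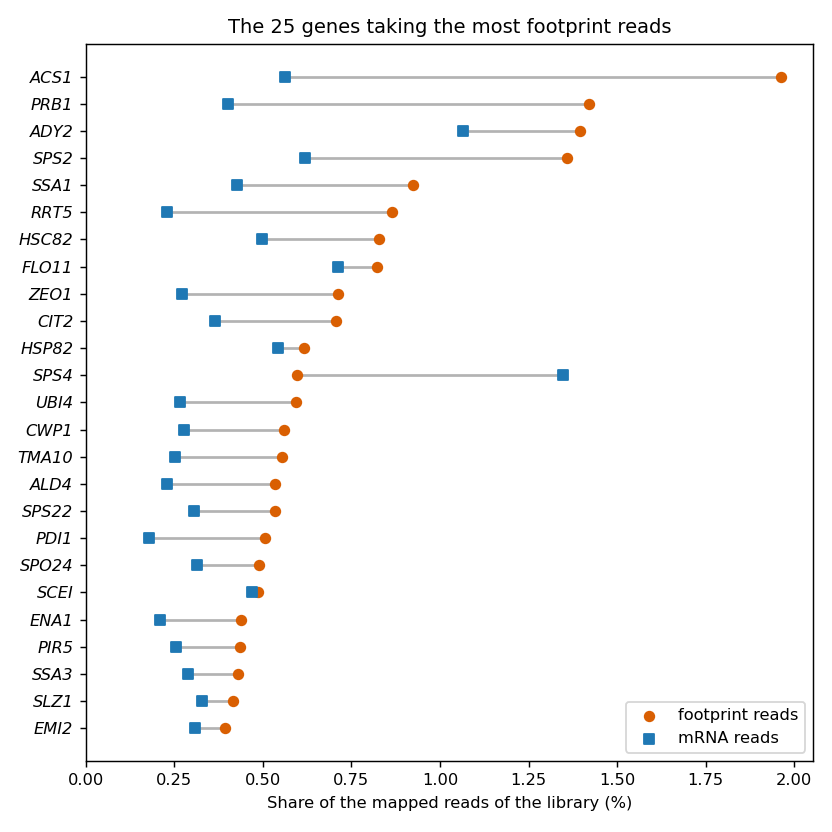
The 25 members with the most footprint reads, from the top down, with the share of mapped footprint reads (circles) and of mapped mRNA reads (squares) in percent on the horizontal axis. In 24 of them the circle lies to the right of the square, by the widest margin at *ACS1*, and *SPS4* is the one where it lies to the left.

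The remaining genes of these 25 had mixed roles. *CIT2*, the peroxisomal citrate synthase, had a TE of 1.94, and *ALD4*, a mitochondrial aldehyde dehydrogenase, 2.33. *UBI4*, polyubiquitin, had 2.23, while *ENA1*, a sodium-pumping ATPase of the plasma membrane, had 2.10. *ENA1* is also named in a shared entry. Of the cell surface genes, *FLO11*, a flocculin, had a TE of 1.16, *CWP1* 2.02 and *PIR5* 1.72. *SLZ1*, a partner of the meiotic mRNA methyltransferase, was at 1.26, and *EMI2* at 1.27. *FLO11* and *UBI4* contain repeats, and part of their signal sits in separate entries that repeat the ORF name and are not members.

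Ranked by RPKM, the density of footprints per length, short genes came first. The highest was *SPO24*, a small sporulation gene, with 23950.1 RPKM of footprints and 15349.9 RPKM of mRNA, a TE of 1.56. *TMA10*, which encodes a ribosome-associated protein, followed with 21264.8 RPKM and a TE of 2.21, and *ZEO1*, a plasma membrane protein, with 20800.4 RPKM and a TE of 2.63. Others of this kind were *HOR7* at 14532.6 RPKM, *ACB1*, the acyl-CoA binding protein, at 8203.8 RPKM, YBR085C-A at 7435.0 RPKM and *PMP3*, a small plasma membrane protein, at 7104.4 RPKM. Their TE ran from 1.37 for *HOR7* to 3.33 for *PMP3*, all above the median.

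A high mRNA level did not always bring a high TE. The footprints of the genes named next still ranked high among the members, from 14th for *SCEI* to 79th for *SPR2*. The member with the most mRNA was YDR133C, at 29311.4 RPKM, an entry with no gene in the reference table, whose footprints were 5169.7 RPKM and TE 0.176. *SPR2*, a sporulation gene, was among the 10 highest in mRNA with 5778.8 RPKM and had a TE of 0.326 (0.315 to 0.337). The heat shock gene *HSP12* had 8967.9 RPKM of mRNA and a TE of 0.515. *SCEI* (Q0160), an endonuclease gene on the mitochondrial genome, had 6865.2 RPKM of footprints and 6609.7 RPKM of mRNA. Its TE of 1.04 (1.01 to 1.06) was above the median.

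At the high end, among named members with at least 50 RPKM of mRNA, the first was *HSK3*, a subunit of the DASH complex that couples kinetochores to microtubules. Its 563.5 RPKM of footprints stood against 90.6 RPKM of mRNA, a TE of 6.22 (4.56 to 8.78). *TVS1* followed at 4.85 (4.34 to 5.45), *DPI8* at 4.78 (3.72 to 6.27) and *MNC1* at 4.07 (3.42 to 4.87). *HHO1*, the linker histone, had 1115.4 RPKM of footprints against 280.1 RPKM of mRNA and a TE of 3.98 (3.62 to 4.39). The intervals of *HSK3*, *TVS1* and *DPI8* overlap, so their order is not fixed by these reads.

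Several of the others act in mitochondria or in meiosis. *QCR10*, a subunit of respiratory complex III, had a TE of 3.93, and *COX26*, a protein bound to complex IV, 3.47 (3.19 to 3.79). *RTG1*, a transcription factor of the mitochondrial retrograde response, was at 3.65 (3.02 to 4.43). *ECM11*, a protein of the synaptonemal complex, had 1506.5 RPKM of footprints, 423.7 RPKM of mRNA and a TE of 3.56 (3.31 to 3.83), and its partner *GMC2* had a TE of 2.81. *RRT5*, *PRB1* and *ACS1* complete the 12 highest.

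Genes with an ORF span above 600 bp held further high values (those named next were chosen after their values were seen). *CHC1*, the clathrin heavy chain, had a TE of 3.43 (3.16 to 3.73). *DSK2*, a ubiquitin receptor that delivers substrates to the proteasome, was at 3.22 (2.89 to 3.59), and *CAR2*, ornithine aminotransferase, at 3.15 (2.84 to 3.50). *DOC1*, a subunit of the anaphase-promoting complex, was at 2.89 (2.52 to 3.32). The paralogous helicase genes *DBP1* and *DED1*, whose products unwind mRNA for initiation, were both in this range, *DBP1* at 3.31 (3.02 to 3.63) with 435.2 RPKM of footprints and *DED1* at 3.00 (2.70 to 3.32) with 321.7 RPKM. Their intervals overlap. *MRP51*, the neighbour of *DBP1* that encodes a mitochondrial ribosomal protein, was below the median at 0.486 (0.400 to 0.592).

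Over all members without the 50 RPKM limit, the highest TE belonged to YGR269W, with 476.6 RPKM of footprints and 37.3 RPKM of mRNA. It has no gene in the reference table and no interval. The next were YOR012W at 9.15 (4.81 to 19.3), which rests on 10 mRNA reads, *DMO1* at 8.67 (5.26 to 15.5), which rests on 16, and YDL022C-A at 7.99 (3.95 to 17.3), which rests on 9. Here the limit is the mRNA count, and the intervals are correspondingly wide.

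**Figure D3:**
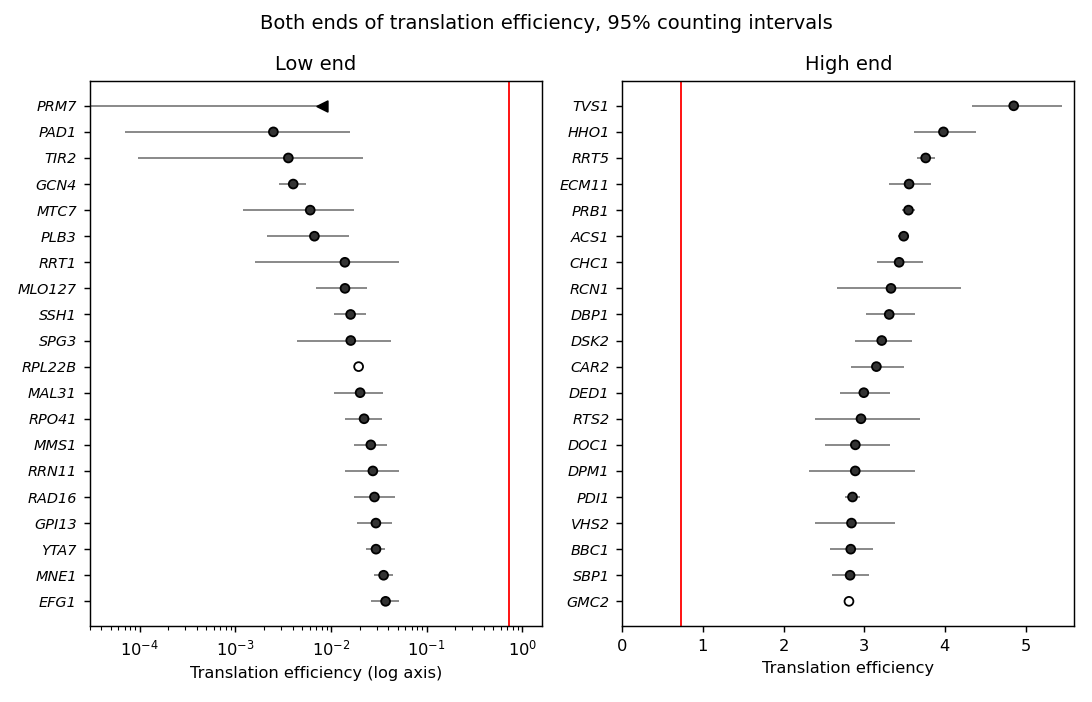
TE on the horizontal axis (log in the left panel, linear in the right) for the 20 lowest and 20 highest named nuclear members with at least 50 RPKM of mRNA that are in no shared entry, the high ones limited to gene spans above 600 bp. Lines are 95% counting intervals, the arrowhead at *PRM7* marks the upper limit of a gene at 0 footprints, open circles have no interval, and the red line is the median TE of 0.728, which no interval reaches.

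The low end was of more mixed make-up. Of the 12 lowest members with at least 50 RPKM of mRNA that have a name and are not described as dubious, 6 were mitochondrially encoded. The limit left out *PSY1*, described as dubious and also named in a shared entry, at 0 footprints with 114.0 RPKM of mRNA. *COX1*, *ATP8* and the intron ORF *AI3* were listed at 0 footprints against 68.8, 148.5 and 176.4 RPKM of mRNA. *AI5_ALPHA*, *AI5_BETA* and *AI1* had 0.2 to 0.5 RPKM of footprints. *COX1*, *AI3*, *AI5_ALPHA* and *AI1* are also named in entries shared with another ORF. These genes are translated inside the organelle by its own ribosomes. The labels give the molecule as poly(A) RNA. How well the 2 libraries captured mitochondrial messages and ribosomes was not measured, so these values are not a measure of translation there. Of the 16 mitochondrially encoded members 11 were at 0 footprints and 15 (93.8%) were at least 2-fold below the median, and *SCEI* was the exception.

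The nuclear gene that stood out by its reads was *GCN4*, the activator of amino acid biosynthesis genes, which is known for short upstream ORFs that control its translation. Its mRNA ranked 33rd of all members at 2773.7 RPKM, or 5209 inferred reads, while its footprints were 11.2 RPKM, or 39 reads. The resulting TE of 0.00404 (0.00287 to 0.00554) was the lowest of any nuclear member with at least 10 footprint reads behind it. *PRM7* was listed at 0 footprints with 53.5 RPKM of mRNA, and 3 reads would put its TE at 0.00651. *PAD1*, a phenylacrylic acid decarboxylase, and *TIR2*, a cell wall mannoprotein gene, each rested on 1 footprint read, with upper limits of 0.0157 and 0.0219. *MTC7* had 3 footprint reads against 276 of mRNA, a TE of 0.00608 (0.00120 to 0.0173), and *IRC9* was at 0 and is also named in a shared entry.

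Below TE of 0.05 there were also nuclear genes with well-measured mRNA and essential or metabolic roles (chosen after their values were seen). *SSH1*, a subunit of a protein translocon of the endoplasmic reticulum, had 286.3 RPKM of mRNA and 4.6 RPKM of footprints, a TE of 0.0161 (0.0107 to 0.0235). *RPO41*, the mitochondrial RNA polymerase, was at 0.0222 (0.0140 to 0.0345). *RRN11*, a core factor of RNA polymerase I, was at 0.0275, and *GPI13*, an enzyme of GPI anchor synthesis, at 0.0295. The footprints of these 4 genes amounted to between 11 and 28 inferred reads over the whole ORF.

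Genes of DNA repair and chromatin occurred here as well. *MMS1*, a ubiquitin ligase subunit of replication-linked repair, had a TE of 0.0261 (0.0174 to 0.0385). *RAD16*, a nucleotide excision repair gene, was at 0.0285 (0.0174 to 0.0464). *YTA7*, a chromatin-bound ATPase, had 158.7 RPKM of mRNA but 4.7 RPKM of footprints, and its TE of 0.0296 (0.0233 to 0.0371) rests on 80 footprint reads. *MNE1*, which acts in the splicing of mitochondrial *COX1* RNA, stood at 0.0356 with 292.5 RPKM of mRNA, and *PCL5*, a cyclin of the kinase Pho85, at 0.0438 (0.0305 to 0.0621) with 287.5 RPKM.

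Some genes of maltose and hexose use also occurred at the low end. *MAL31*, the maltose permease, and *MAL32*, maltase, stood at 0.0202 (0.0108 to 0.0354) and 0.0197 (0.0131 to 0.0280), although *MAL32* had 213.5 RPKM of mRNA. *HXT7*, a hexose transporter, was at 0.0265 (0.0161 to 0.0408), but *HXT6* was well above it at 0.402 (0.332 to 0.490). *MAL32*, *HXT6* and *HXT7* are also named in entries shared with near-identical genes, so their own reads are uncertain.

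The 2 ends differed in the genes' span. Among 2608 named nuclear members with at least 50 RPKM of mRNA and outside shared entries, the 50 highest in TE had a median span of 765 bp and 20 of them (40.0%) were under 600 bp. The 50 lowest had a median span of 1420 bp and 5 (10.0%) were under 600 bp. Over all 2608 the median was 1084 bp with 20.1% under 600 bp. Median mRNA was 202.5 RPKM at the high end, 102.9 RPKM at the low end and 119.9 RPKM over all.

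The same tendency ran through all members. With the members cut into 5 equal groups by gene span, the median TE went from 0.903 in the shortest, of at most 672 bp, to 0.666 in the longest, of at least 2118 bp. In the 159 genes under 300 bp the median was 1.08, and 38.4% were at least 2-fold above the median of all members while 18.2% were at least 2-fold below. Only the share above differed much from that of all members. With the same done by mRNA level, the median TE went from 0.618 to 0.969, and the share at least 2-fold above the median from 9.61% to 21.4%. Across genes the correlations were weak, with r of -0.14 between log2 TE and log2 span (n = 5229) and of 0.150 between log2 TE and log2 mRNA (n = 5284). TE has mRNA in its denominator and RPKM has length in it, so these measures share a term.

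**Figure D4:**
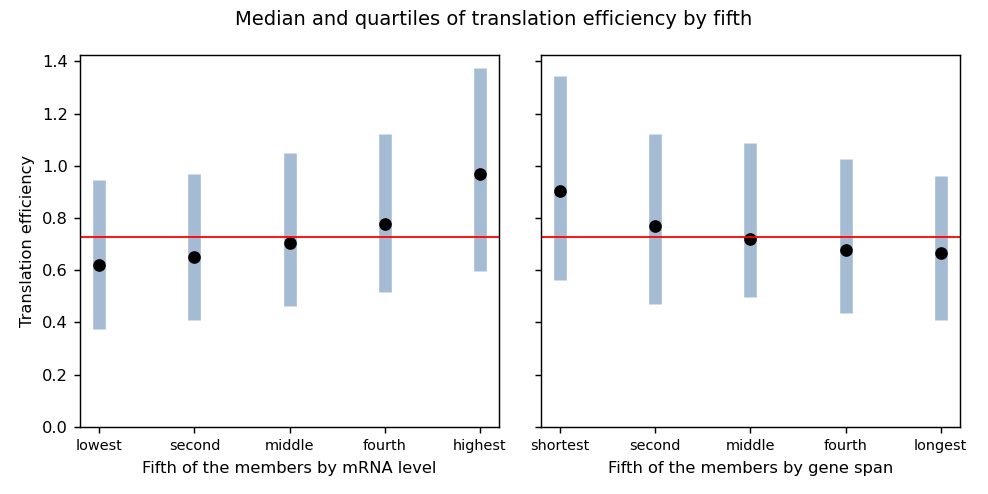
Median TE (points) and the range from the lower to the upper quartile (bars) for 5 equal groups of members by mRNA RPKM (left) and by gene span in bp (right), with the median of all members as a red line. The medians run from 0.618 to 0.969 with rising mRNA and from 0.903 to 0.666 with rising span, and the quartile ranges of neighbouring groups overlap.

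Members without a gene in the reference table formed a class apart. Since strand and the handling of reads with several matches are not given, the values of this class may hold reads of overlapping genes. There were 88 such members, their median TE was 0.0389 and 67 (76.1%) were at least 2-fold below the median of all members. Footprints were at 0 for 33 of them (37.5%), against 40 of the 5269 members with a reference gene (0.759%). YGL188C, which belongs to this class, was at 0 footprints with 65.2 RPKM of mRNA. YDR003W-A, which has a reference gene of 123 bp, was at 0 with 233.5 RPKM. They are among 19 members with at least 50 RPKM of mRNA that are tied at 0 footprints. Entries that the files call of unknown function were unlike this class. Their median over 274 members was 0.726, with 12.4% at least 2-fold above and 17.2% below, both near the background, and it ran from the mitochondrial *AI5_BETA* at 0.00367 to *WWM1* at 3.18. Only 3 of 16 ORFs described as dubious passed the mRNA floor, and all 3 were at least 2-fold below.

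Gene lists differed in their TE. Each is given below by its members, its median and the share at least 2-fold from the median of all members, beside 12.4% above and 17.7% below for all members. None was tested.

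Genes for acetate use had the highest median of any list, 1.41 over 34 members. Acetate is the carbon source of sporulating yeast, which burn it in the TCA cycle and build sugar from it through the glyoxylate cycle. Of the 34, 31 were above the median of all members, 14 (41.2%) were at least 2-fold above and none was 2-fold below. They held 5.78% of all listed footprint RPKM and 3.91% of mRNA RPKM. *ACS1* led, and *IDH1*, a subunit of isocitrate dehydrogenase, followed at 2.46. *MLS1*, malate synthase of the glyoxylate cycle, was at 2.15. At the other end *DAL7*, a malate synthase induced with allantoin use, was at 0.371 (0.286 to 0.487), and *PCK1*, which commits carbon to sugar synthesis, had 2574.3 RPKM of mRNA and a TE of 0.716.

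Nuclear-encoded respiratory genes were close behind, with a median of 1.35 over 37 members, 17 (45.9%) at least 2-fold above and 1 below. *CYC1*, the aerobic cytochrome c, was at 3.22 (2.72 to 3.83), above its isoform *CYC7* at 1.21 (1.07 to 1.37). *COX9*, a complex IV subunit, was at 2.90. The one low member was *COX5B*, the hypoxic form of complex IV subunit 5, with 42.6 RPKM of footprints, 180.6 RPKM of mRNA and a TE of 0.236, while the aerobic form *COX5A* stood at 2.23 (2.02 to 2.46). *COX5B* contains an intron, as do *QCR10* and others, and such genes are given without an interval. The 73 genes of mitochondrial ribosomal proteins had a median of 0.954, with 13 (17.8%) at least 2-fold above and none below, from *MRP7* at 0.424 to *MRPL4* at 2.59.

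Cytosolic ribosomal protein genes lay on the opposite side. Their median over 133 members was 0.463, 47 (35.3%) were at least 2-fold below the median of all members, and 2 were at least 2-fold above. They held 1.56% of listed footprint RPKM against 3.02% of mRNA RPKM. The lowest, *RPL22B*, had 2.0 RPKM of footprints against 102.6 RPKM of mRNA, a TE of 0.0195, and its paralog *RPL22A* was at 0.226. The highest, *RPL15B*, at 2.22, is also named in an entry shared with its near-identical paralog *RPL15A*, which was at 0.336. Ribosome biogenesis genes, which build the particles in the nucleolus, had a median of 0.559 over 50 members, with 11 (22.0%) at least 2-fold below and none above, from *ARX1* at 0.123 to *UTP20* at 0.972. Their median mRNA was only 25.5 RPKM. All members between 24.7 and 43.8 RPKM of mRNA had a median TE of 0.651, with 20.4% at least 2-fold below and 8.5% above. Those between 10.0 and 24.7 RPKM had a median of 0.618, with 24.2% below and 9.61% above. The share of biogenesis genes on the low side was thus near that of members with as little mRNA. Their median was lower, and none was 2-fold above.

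Factors that run translation had higher medians than the ribosomal protein genes. The 34 initiation factor genes had a median of 0.990, with 9 (26.5%) at least 2-fold above and none below. Besides *DBP1* and *DED1*, the scaffold genes of the cap-binding complex *TIF4632* and *TIF4631* were high, at 3.14 and 2.24, as was *EAP1*, an eIF4E-binding protein, at 3.06, whereas *GCD6*, a subunit of eIF2B, was lowest at 0.463. The 11 elongation and termination genes had a median of 0.995, with 5 (45.5%) at least 2-fold above. That is 1.37 times the median of all members, a ratio of 1.01 once ORFs also named in a shared entry are left out. *YEF3*, elongation factor 3, was lowest at 0.353 (0.333 to 0.374), and its paralog *HEF3* was at 1.52. *EFT1*, at 2.74, shares an entry with its identical copy.

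**Figure D5:**
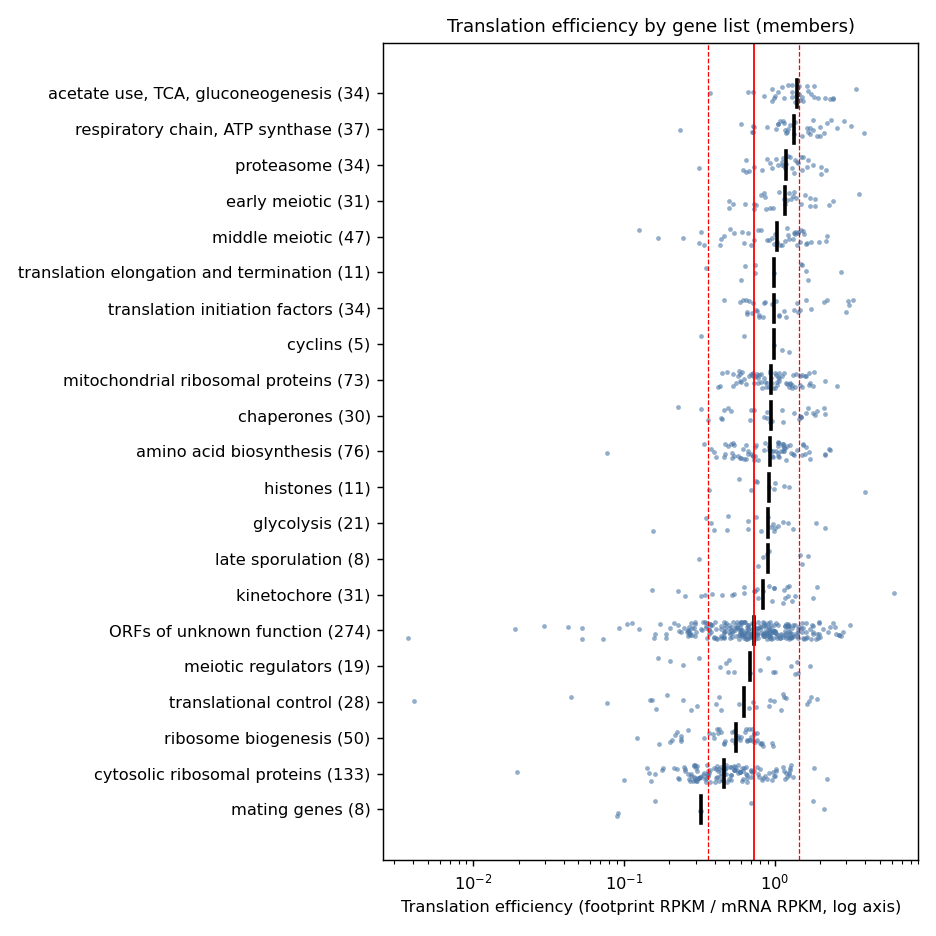
TE on the horizontal log axis for each member (points) of 21 gene lists, ordered by the list's median (black bars), with the number of members in brackets. The red line is the median of all members, 0.728, and the dashed lines lie 2-fold from it. The acetate list is at the top with a median of 1.41 and the cytosolic ribosomal proteins, at 0.463, are second from the bottom.

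Early meiotic genes, which make and repair the DNA breaks of recombination and pair the chromosomes, had a median TE of 1.18 over 31 members. Of these 27 were above the median of all members, 9 (29.0%) at least 2-fold above and none 2-fold below. *MER1*, a splicing factor of meiotic introns, was highest at 3.63 (2.59 to 5.18), and *MAM1*, a subunit of monopolin that makes sister kinetochores co-orient, lowest at 0.499 (0.451 to 0.551). *REC114*, needed for break formation, was at 2.43, and *HOP1*, an axis protein, at 1.85. *DMC1*, with the highest mRNA of the list, was at 0.872.

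Middle meiotic genes, which Ndt80 turns on for the divisions and spore formation, were more spread. Their median was 1.04 over 47 members, with 10 (21.3%) at least 2-fold above and 6 (12.8%) at least 2-fold below. These shares were near the 21.4% and 12.8% of the fifth of members highest in mRNA. The median mRNA of the list was 665.4 RPKM. The lowest was *SPR6*, with 191.1 RPKM of footprints, 1506.3 RPKM of mRNA and a TE of 0.127 (0.114 to 0.141). *MND2*, a subunit of the anaphase-promoting complex, was highest at 2.24 (1.89 to 2.66), followed by *SPS2* and *SPS18*. *SPO20*, a SNARE of the prospore membrane, was at 0.433 (0.407 to 0.462). *SMK1*, the sporulation MAP kinase, was at 1.04. Within this class the lowest and the highest gene differed about as widely as the 5th and 95th percentiles of all members.

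The 8 late sporulation genes had a median of 0.909. *CDA1* and *CDA2*, the chitin deacetylases of the spore wall, were at 1.66 and 1.47 with 1405.9 and 2703.2 RPKM of mRNA, while *DIT2*, an enzyme of dityrosine synthesis, was at 0.314 (0.241 to 0.411) with 47.7 RPKM.

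Regulators of meiosis had a median of 0.689 over 19 members, with 1 (5.26%) at least 2-fold above and 4 (21.1%) at least 2-fold below. *IME1*, the master activator of meiotic entry, was at 0.903 (0.874 to 0.933) and the kinase gene *IME2* at 0.974 (0.946 to 1.00), with 2176.1 and 1600.4 RPKM of footprints. *NDT80*, the activator of the middle genes, was at 1.43 (1.37 to 1.49). *RIM4*, which encodes an RNA-binding repressor of translation, was the one member 2-fold above, at 1.71 (1.66 to 1.77). The RNA-binding protein genes *PES4* and *MIP6* were at 1.37 and 1.42, and *IME4*, the mRNA methyltransferase, was at 1.29.

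The 4 low regulators had different levels of mRNA. *SSP2*, the activator of the Smk1 kinase, had 1860.7 RPKM of mRNA and 311.3 RPKM of footprints, a TE of 0.167 (0.158 to 0.178). *AMA1*, the meiotic activator of the anaphase-promoting complex, had 827.5 RPKM of mRNA and a TE of 0.248. *SPS1*, a sporulation kinase, had 1451.8 RPKM and a TE of 0.315 (0.301 to 0.330). *SUM1*, the repressor of middle genes, had only 37.3 RPKM and a TE of 0.201 (0.157 to 0.254). The first 3 are themselves middle genes and are counted in both lists.

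The remaining regulators lay within 2-fold of the median. *GIP1*, a targeting subunit of protein phosphatase 1 in spore formation, was at 0.539, and *UME6*, which binds the promoters of early genes, at 0.502. The kinase genes *RIM11*, *MCK1* and *RIM15*, which act on meiotic entry, were at 0.493, 0.689 and 1.02. *SWE1*, an inhibitor of the cyclin-dependent kinase, was at 0.474, and *NDD1*, a transcription factor of mitotic genes, at 0.805, each with fewer than 100 RPKM of mRNA.

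Of 9 cyclin genes 5 were members. *CLB1*, the main cyclin of the first meiotic division, was at 0.988 (0.934 to 1.05), *CLB4* at 1.25 (1.16 to 1.35) and *CLB5*, an S-phase cyclin, at 1.11 (1.01 to 1.23). *CLB6* was lower at 0.628 (0.548 to 0.720). *CLB3*, whose translation is known to be held back by Rim4 until the second division, was lowest at 0.326 (0.294 to 0.361) although its mRNA, 346.0 RPKM, exceeded that of *CLB4* at 301.0 RPKM. Their intervals are well apart. *CLB2* and the 3 *CLN* genes were under the mRNA floor.

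Genes known for control of their own translation had a median of 0.631 over 28 members, with 10 (35.7%) at least 2-fold below and 4 (14.3%) at least 2-fold above. After *GCN4* came *BOI1*, a gene of bud growth, at 0.0447 (0.0307 to 0.0624), *CPA1*, whose upstream ORF encodes an arginine-sensing peptide, at 0.0773 (0.0651 to 0.0913), *HAP4*, an activator of respiratory genes, at 0.150 (0.137 to 0.165), and *NDC80* at 0.153 (0.139 to 0.168). *BOI1* and *NDC80* are known in meiosis for 5′ extended transcripts that carry upstream ORFs. *HOL1*, a polyamine transporter, was at 0.194.

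The rest of this list, whatever the mode of control, lay on both sides of the median of all members. Of those read by a ribosomal frameshift, *EST3*, a telomerase subunit, was at 0.163, but *OAZ1*, the antizyme of ornithine decarboxylase, was at 0.924 and *ABP140*, an actin-binding protein, at 0.940. *HAC1*, whose unspliced mRNA is held from translation, had 1012 RPKM of mRNA and a TE of 0.426. *GRS1* and *ALA1*, the glycyl- and alanyl-tRNA synthetases that also start at non-AUG codons, were at 0.584 and 1.65. *GRS1* is also named in a shared entry. *CBS1* (0.279), *PPR1* (0.304) and *CTR9* (0.406) were low with few reads. *RPL10* (0.443), *YAP1* (0.677), *DUR3* (0.717) and *FOL1* (0.757) lay near or below the median of all members, and *SUP35* (0.995), *URE2* (1.10), *SCH9* (1.15), *PAB1* (1.16) and *LEU4* (1.19) above it. The highest were *CAD1* at 1.91 (1.59 to 2.28), *SUI1*, which selects start codons as eIF1, at 1.74, and *SCO1*, a copper chaperone of complex IV, at 1.69.

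The kinetochore list ran from *NDC80* at 0.153 to *HSK3* at 6.22, with a median of 0.838 over 31 members, 3 (9.68%) at least 2-fold above and 5 (16.1%) below. The 4 subunits of the Ndc80 complex were not alike. *NDC80* had 422.3 RPKM of mRNA and 64.6 RPKM of footprints. *NUF2* was at 0.625 (0.471 to 0.820) with 33.1 RPKM of mRNA, *SPC24* at 1.20 (0.862 to 1.71) with 36.4 RPKM and *SPC25* at 1.91 (1.61 to 2.28) with 116.8 RPKM. *NDC80* thus had the most mRNA of the complex and less footprint signal than *SPC25*, which had 223.5 RPKM. The histone list had a median of 0.925 over 11 members and, apart from *HHO1*, ran from *HTA2*, an H2A gene, at 0.369 to *HHT2*, an H3 gene, at 1.24.

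Protein turnover and folding genes were mostly above the median of all members. Their median mRNA was high, 423.4 RPKM for proteasome and 350.2 RPKM for chaperone genes. The fifth of members highest in mRNA had a median TE of 0.969, with 21.4% at least 2-fold above and 12.8% below. The 34 proteasome genes had a median of 1.19, with 28 above the median of all members and 9 (26.5%) at least 2-fold above it. *RPN10*, a ubiquitin receptor, was highest at 2.21, and *RPN8*, a lid subunit, was the only one at least 2-fold below, with 1116 RPKM of mRNA and a TE of 0.316 (0.296 to 0.337). The 30 chaperone genes had a median of 0.947, with 11 (36.7%) at least 2-fold above and 3 (10.0%) below. The Hsp40 gene *YDJ1* was at 2.14, whereas *HSP31* was at 0.229 (0.172 to 0.301) and the stress-induced Hsp70 gene *SSA4* at 0.323 (0.291 to 0.358).

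Biosynthetic and sugar-burning genes were intermediate. The 76 amino acid biosynthesis genes had a median of 0.940, with 11 (14.5%) at least 2-fold above and 2 (2.63%) below, which were *CPA1* and *HOM3*, aspartate kinase, at 0.338. *MET16*, an enzyme of sulfate assimilation, was highest at 2.35 (1.67 to 3.36). *LYS2* and *TRP1*, at 0.459 and 0.599, are loci that the strain carries in altered form, as it does *HIS3*. The 21 glycolysis genes had a median of 0.912, with 2 at least 2-fold above and 2 below. The *TDH* paralogs of glyceraldehyde-3-phosphate dehydrogenase ran from 0.377 for *TDH1* to 0.981 for *TDH3* and 2.16 for *TDH2*, but they share entries with each other and their split is uncertain. *PDC5*, a pyruvate decarboxylase, was lowest at 0.157 and is also named in a shared entry.

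The mating list had a median of 0.323 over the 8 members that passed the mRNA floor, or 0.444 times the median of all members. That ratio was 0.859 with an mRNA floor of 50 RPKM and 0.703 without ORFs under 300 bp. Of these 5 (62.5%) were at least 2-fold below the median of all members, but most rested on few reads: *MFA2*, a pheromone gene of 117 bp, had 1 footprint read and 6 mRNA reads, for a TE of 0.0897 (0.00196 to 0.742). *MFA1* was at 0.160 (0.0721 to 0.312). *STE18*, at 1.80 (1.54 to 2.11), and *FUS3*, the mating MAP kinase, at 2.13 (1.42 to 3.22), went the other way. Just inside, *VPS8*, YNL035C and *TRF5* had 10.0 RPKM of mRNA and TE of 0.180, 0.950 and 0.460. Just outside, *INN1*, *EMW1* and *MAY24* had 9.9 RPKM and ratios of 0.636, 0.414 and 5.81.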

How the data were processed

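Footprints and mRNA were sequenced once each from wild-type SK1 cells. Mapping was to the SK1 genome, and the deposited values are RPKM, for which the authors divided the reads of each ORF by its length and by the mapped reads of the library, given to 1 decimal. The submitters' processing notes name CASAVA, bcl2fastq 2.17 and Bowtie2. Aligner settings, annotation, strand and the handling of reads with several matches are not given in the sources used here, so values of near-identical or overlapping genes are uncertain. The labels give the molecule as poly(A) RNA.

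TE was footprint RPKM over mRNA RPKM with no pseudocount. Names and gene spans came from the RefSeq gene table of assembly R64, of another strain, which matched 5771 entries. Spans include introns, and 172 members whose span is not a multiple of 3, and 4 others with a known intron (*RPL22B*, *HAC1*, *QCR10* and *AMA1*), have no interval, while introns of further genes may have gone unrecognised. Reads were inferred as the depth, in steps of 10000, at which low values (under 20 RPKM) of short ORFs (under 500 bp) came nearest to whole reads. Of the values, 74.9% (footprints, 163 values) and 82.8% (mRNA, 157 values) then fell within 0.1 of a whole read, against 18.0% and 19.0% at other depths. Summed over genes, RPKM times span gave 101.3% and 100.8% of the mapped reads. The procedure was tested on simulated data. Python 3.11.15, numpy 2.4.6, pandas 2.3.3, scipy 1.17.1 and matplotlib 3.10.9 were used.

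With 1 library per assay no test was possible and everything is a description. Genes named are the 12 highest and 12 lowest members with a name, not described as dubious and with at least 50 RPKM of mRNA, the 6 highest and lowest whatever their name, the 25 highest in footprint reads, the 15 highest in footprint RPKM and the 10 highest in mRNA RPKM, the extremes of each of 23 gene lists, all members of the regulator, cyclin and translational control lists (1 of which is not reported here), *DBP1*, *DED1* and *MRP51*, and 3 entries on each side of the mRNA floor. Further list members, and genes marked as such, were chosen after their values were seen. The members and lists were chosen with earlier results of these data known. Lists of ribosomal proteins and of dubious or unknown ORFs were taken from names or descriptions in the files. Of the members, 205 are also named in an entry shared with another ORF, where some of their reads may lie. Alternatives were other mRNA floors, a pseudocount, a 4-fold threshold, leaving out short, mitochondrial, dubious or thinly covered entries, keeping entries with several names, another scaling and RPKM in place of reads.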

Additional observations from a re-analysis of the deposited data

How the results depend on the processing

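With mRNA floors of 1 and 50 RPKM in place of 10, the median TE was 0.710 and 0.811, the share within 2-fold of it 67.2% and 72.0%, the correlation of footprints with mRNA 0.857 and 0.776, and the number of members at 0 footprints 244 and 19. With the floor of 50 RPKM, 320 members were at least 2-fold above and 506 below the median. A 4-fold threshold left 52 above and 387 below. Rescaling each library without its 50 highest entries multiplied every TE by 1.06 and gave a median of 0.770. The share within 2-fold was 71.2% with a pseudocount of 1, 71.7% without ORFs under 300 bp and 71.4% without entries under 20 inferred mRNA reads. The last 2 settings also drop members with no span or no inferred reads, among them the 33 at 0 footprints without a reference gene. Without ORFs under 300 bp 27 members were at 0 and the correlation was 0.848, and without entries under 20 reads these were 24 and 0.857. For 2 alternatives chosen after seeing the data, leaving out members without a reference gene left 40 at 0 and a correlation of 0.850, and leaving out ORFs also named in a shared entry gave a correlation of 0.848. Fewer entries enter each of these counts by construction, and the cause of the other shifts was not tested. The series-wide values kept their direction. Of the 22 gene lists, the ratio of the list's median to that of all members crossed 1 for meiotic regulators (0.946 to 1.02 without entries under 20 reads) and for ORFs of unknown function (0.996 to between 1.00 and 1.02 under 3 settings), and it went from 1.25 to 1.81 for late sporulation genes with the floor of 50 RPKM. Depth limits members with few reads: under about 20 mRNA reads the interval of TE spans severalfold. No paired analysis was possible because there is 1 library per assay.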

Other observations

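Footprints also lay outside the members. Of the 993 single-ORF entries under the mRNA floor, 192 had more footprint than mRNA RPKM, and 68 entries had footprints above 0 with mRNA listed at 0. More footprint than mRNA RPKM was also common among the 5357 members, where *RIM15*, at a TE of 1.02, ranked 1585th. A ratio of 1 has no meaning of its own. YGL182C had 175.0 RPKM of footprints and 9.3 RPKM of mRNA, and YBR224W had 43.6 RPKM with mRNA at 0. Neither has a gene in the reference table. YIL105W-A, of 141 bp, had 73.0 RPKM against 6.5 RPKM, which is an inferred 42 footprint and 2 mRNA reads. *FMT1*, the mitochondrial methionyl-tRNA formyltransferase, had 29.9 RPKM against 8.6 RPKM, from 148 and 23 reads.

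Entries that join several ORFs held some of the highest signals. The entry for both histone H4 genes had 7832.8 RPKM of footprints and 16069.9 RPKM of mRNA, a ratio of 0.487, while the entries of the single H4 genes *HHF1* and *HHF2* stood at 0.925 and 0.582. The entry for both elongation factor 1 alpha genes had 5266.9 and 4785.3 RPKM, a ratio of 1.10. The entry shared by *HSC82* and *HSP82* was at 1.18, between the 1.66 and 1.14 of the single entries. Subtelomeric Y′ helicase genes were low where they had an entry of their own: *YRF1-6* had 1.1 RPKM of footprints and 121.5 RPKM of mRNA, *YRF1-8* 3.7 and 71.3 RPKM, and *YRF1-3* 7.7 and 43.1 RPKM. These are near-identical copies, and their split is uncertain.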
